A study of Homo sapiens with 10 samples.

Results

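The S100 genes of myeloid cells were followed in MV4-11, an established human AML cell line. The genes were chosen by symbol, but with earlier results of these data known: S100A4, S100A6, S100A8, S100A9, S100A10, S100A11, S100A12, S100A13, S100P and S100Z, which make up 10 of the 19590 genes of the table. RNA-Seq libraries of the CRISPR Control (4 replicates, by the methods of the study from cells infected with the control vector) were compared with libraries of the IRF8 knockout (IRF8 KO, 4 replicates). The control columns of the table are headed WT, and the study also used wild-type cells as distinct from vector-infected ones, so which of these cells the columns hold rests on the sample labels. IRF8 is a transcription factor of monocytes and dendritic cells, and the comparison asks which genes depend on it in these leukemia cells. The knockout cells were clones grown from single cells after infection with a vector for Cas9 and a guide RNA against IRF8. The guide was not the same for all clones of the study. The control cells went through no growth from single cells that the sources name. Effects of the knockout and differences between clones therefore cannot be told apart here. The sources name neither the clone behind each replicate nor whether the replicates were separate cultures, so p-values measure only the spread between these libraries, which may be technical.

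S100 proteins are small calcium sensors of the EF-hand family. S100A8 and S100A9 join to form calprotectin, which makes up a large part of the cytosolic protein of neutrophils and monocytes, binds zinc and manganese, and is released as an alarm signal that is sensed by TLR4 and RAGE. S100A12 is a further alarm protein of the same cells. S100A4, S100A6, S100A10 and S100A11 act mostly inside the cell, where they bind annexins, myosin and other partners, and occur in many cell types.

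The genes were split between chromosomes, with 8 on chromosome 1, S100P on chromosome 4 and S100Z on chromosome 5. The promoters of the genes that the results below turn on are shown from 250 bases before to 50 bases after the RefSeq start (GRCh38.p14), read on the strand of the gene. Capitals mark 3 motifs searched on both strands: TATAAA (the TATA box), TTNNGCAA (a short form of the C/EBP site) and GAGGAA (the PU.1 box, which reads TTCCTC on the other strand). These motifs were found in 11.5%, 10.5% and 27.9% of all 35116 RefSeq promoters of this length. S100A8 (chr1:153391024-153391323, minus strand, the one of its 3 listed starts with a TATA box at the usual distance before it), S100A9 (chr1:153357604-153357903, plus strand) and S100A12 (chr1:153375572-153375871, minus strand) are neighbours and are shown together. Their log2 fold changes differed in sign, positive for S100A8 and S100A9 and negative for S100A12, but none of these 3 genes was called in the main test.
S100A8: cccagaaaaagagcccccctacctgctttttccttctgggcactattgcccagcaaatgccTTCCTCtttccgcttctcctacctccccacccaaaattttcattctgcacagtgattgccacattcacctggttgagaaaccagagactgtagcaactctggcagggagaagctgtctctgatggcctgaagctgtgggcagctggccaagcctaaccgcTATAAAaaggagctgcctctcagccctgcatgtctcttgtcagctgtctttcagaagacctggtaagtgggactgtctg
S100A9: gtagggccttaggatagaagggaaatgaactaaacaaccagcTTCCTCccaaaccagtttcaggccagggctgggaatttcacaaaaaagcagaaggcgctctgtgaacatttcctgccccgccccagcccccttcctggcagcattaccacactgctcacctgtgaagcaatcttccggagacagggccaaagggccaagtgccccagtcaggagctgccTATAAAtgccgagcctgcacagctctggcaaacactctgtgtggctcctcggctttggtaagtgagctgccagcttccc
S100A12: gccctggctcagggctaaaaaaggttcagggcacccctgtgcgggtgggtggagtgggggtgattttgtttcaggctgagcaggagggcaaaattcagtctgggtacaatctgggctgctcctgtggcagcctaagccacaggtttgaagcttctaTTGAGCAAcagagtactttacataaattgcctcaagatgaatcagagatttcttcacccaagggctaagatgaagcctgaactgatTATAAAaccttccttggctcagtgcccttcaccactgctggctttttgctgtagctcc
The TATA box began 29 bases before the start in both calprotectin genes and 8 bases before the listed start in S100A12. S100A8 and S100A9 had a PU.1 box and no C/EBP match, and S100A12 had a C/EBP match and no PU.1 box. S100A6 (chr1:153535942-153536241, minus strand) and S100A11 (chr1:152036955-152037254, minus strand) are shown because they were the members that passed the main test, and S100P (chr4:6693628-6693927, plus strand) because it is the member on chromosome 4 with large differences.
S100A6: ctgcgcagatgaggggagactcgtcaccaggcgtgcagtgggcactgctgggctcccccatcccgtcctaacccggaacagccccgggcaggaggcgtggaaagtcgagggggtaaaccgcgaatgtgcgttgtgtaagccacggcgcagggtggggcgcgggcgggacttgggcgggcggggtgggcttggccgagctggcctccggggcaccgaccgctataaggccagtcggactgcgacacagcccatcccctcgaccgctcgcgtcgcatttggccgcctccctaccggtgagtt
S100A11: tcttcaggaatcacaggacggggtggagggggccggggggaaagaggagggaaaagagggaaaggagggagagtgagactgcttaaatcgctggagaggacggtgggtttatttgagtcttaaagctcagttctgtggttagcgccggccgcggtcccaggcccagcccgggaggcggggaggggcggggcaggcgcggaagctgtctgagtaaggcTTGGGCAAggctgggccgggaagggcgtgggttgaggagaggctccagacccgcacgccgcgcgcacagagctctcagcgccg
S100P: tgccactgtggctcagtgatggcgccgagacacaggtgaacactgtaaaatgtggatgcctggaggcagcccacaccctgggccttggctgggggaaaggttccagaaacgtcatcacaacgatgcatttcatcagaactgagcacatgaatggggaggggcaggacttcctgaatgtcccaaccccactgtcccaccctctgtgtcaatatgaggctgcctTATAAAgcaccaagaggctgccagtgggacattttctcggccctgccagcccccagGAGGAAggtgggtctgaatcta
No capitals stand in S100A6, and S100A11 had a C/EBP match alone. S100P had a TATA box 28 bases before the start and a PU.1 box 29 bases after it. RefSeq lists 14 promoters for the 10 members, with 3 each for S100A8 and S100A13, whose windows in part overlap. Of these 14, the letters TATAAA were found at any place in 8, the C/EBP letters in 2 and the PU.1 box in 5. Sites at which IRF8 can bind were searched as GAAA, any 2 bases, GAAA (the interferon response element, 3.57% of promoters) and GGAA, any 2 bases, GAAA (the joint site of an Ets factor and an IRF, 2.82% of promoters), on both strands, and 0 members held either in this window. A match describes letters only, and whether a factor bound there was not tested.

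Reads on genes numbered between 39560072 and 65519047 per library, so that 1 normalized count stood for about 1 read. IRF8 itself was measured at 36891, 15192, 43016 and 22535 normalized counts in control replicates 1 to 4, and at 6377, 2401, 12903 and 7819.7 in IRF8 KO replicates 1 to 4. The knockout libraries thus all lay below the controls but still held IRF8 RNA. The log2 fold change was -2.11 (SE 0.51, limma adjusted p = 0.0222), and the adjusted p rose to 0.0585, 0.0575 and 0.0530 without control replicate 1, control replicate 3 or IRF8 KO replicate 1. The study reported that its knockout clones had no IRF8 protein by Western blot and that knockout cells lacked the IRF8 peaks of ChIP-Seq. RNA counts do not show whether protein was made. The control libraries fell into 2 close pairs, replicates 1 and 3 (correlation of log2 values over genes 0.996) and replicates 2 and 4 (0.992), while all other control pairs stood at 0.965 or lower. Replicates 1 and 3 still differed beyond sampling noise, with a chi-square of 7.20 per gene where counting error alone gives about 1. The sources do not say what sets these pairs apart. Several S100 genes had different levels in the 2 pairs, so differences within each pair are given beside most members.

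With a minimum mean of 10 normalized counts, 9 members were tested and 2 were called higher in IRF8 KO at a limma adjusted p below 0.05 (S100A6 and S100A11) and 0 lower, beside 18.2% of the 13110 genes tested. By direction, 8.65% of all genes were called higher and 9.56% lower. DESeq2 called S100A9 (higher) and S100A12 (lower) as well. This made 4 members at a DESeq2 adjusted p below 0.05, beside 25.9% of all genes (12.8% higher and 13.1% lower). The study called genes at a 2-fold difference or more with p below 0.01 before adjustment, which limma gave for 10.9% of all genes and 0 members and DESeq2 for 12.2% of all genes and 2 members. Libraries of the same replicate number were also treated as pairs, though the sources do not say that the numbers pair them. Control and IRF8 KO libraries matched by the sets 1 and 3 against 2 and 4, and within 1 and 3 not by number. With the replicate number as a block 5 members were called, all higher (S100A6, S100A8, S100A9, S100A11 and S100P), beside 28.7% of all genes (14.2% higher and 14.6% lower). With replicates 1 and 3 against 2 and 4 as a covariate in place of the block, 4 members were called higher (S100A6, S100A9, S100A11 and S100P) and 0 lower, beside 33.1% of all genes (16.5% higher and 16.6% lower). The values of the groups did not overlap in 2 members, both higher in IRF8 KO, beside 25.3% of all genes. At all 4 replicate numbers, 5 members were higher and 0 lower, beside 24.0% and 23.8% of all genes. The log2 fold change was above 0 in 6 and below 0 in 3 of the 9 members, with a median of 0.72 beside a median of -0.00094 over all tested genes. Fold changes are on the scale of log2(normalized count + 1), which understates those of low genes.

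**Figure D1:**
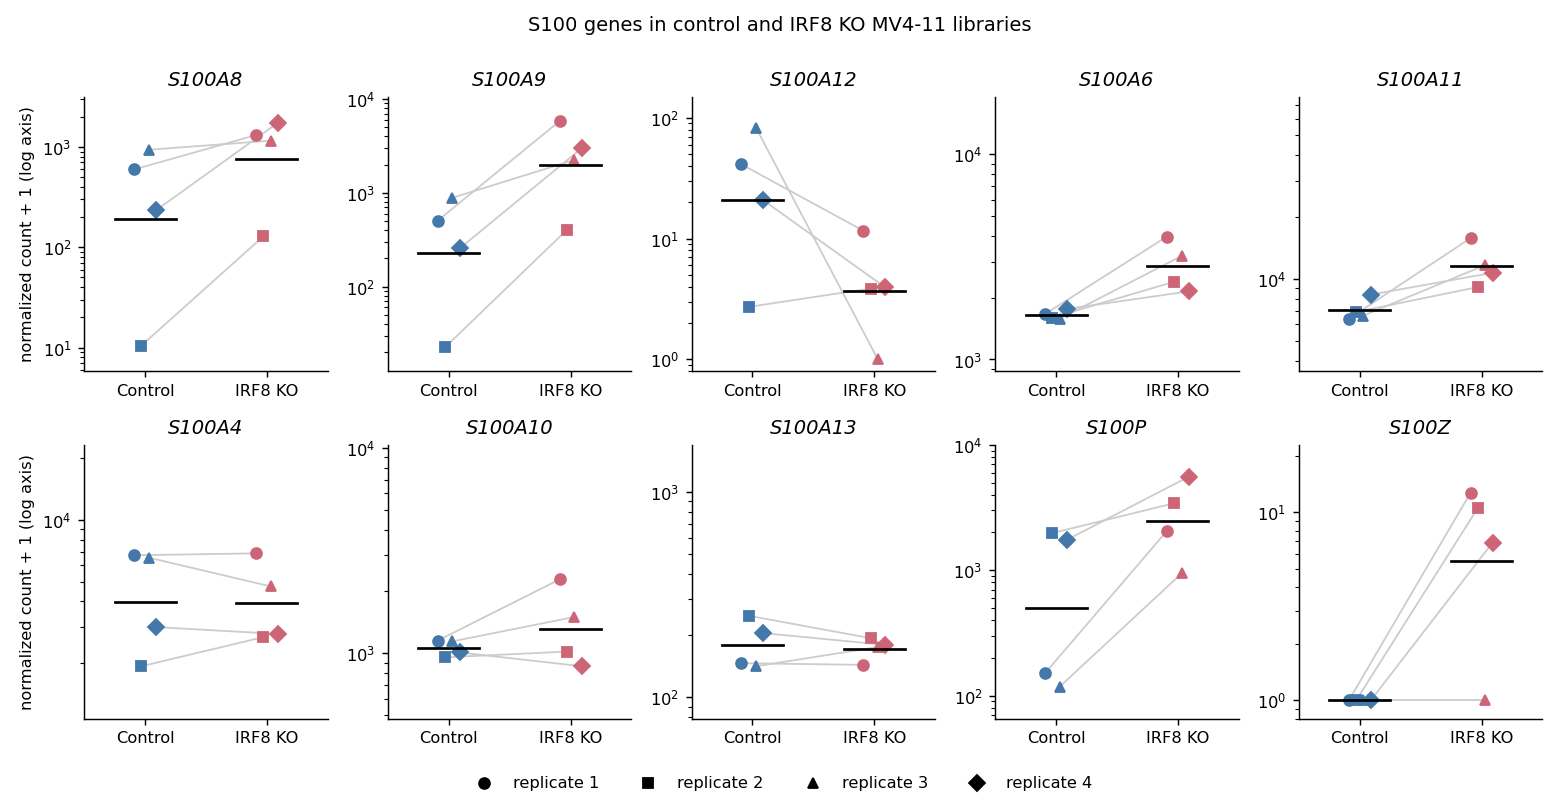
Normalized counts plus 1 on log axes for the 10 S100 genes, 1 panel per gene, in 4 control libraries (blue) and 4 IRF8 KO libraries (red). Symbols and grey lines mark the replicate number and black bars the mean of the log values. S100A8, S100A9, S100A6, S100A11 and S100P were higher in IRF8 KO at all 4 replicate numbers, and the groups did not overlap in S100A6 and S100A11.

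**Figure D2:**
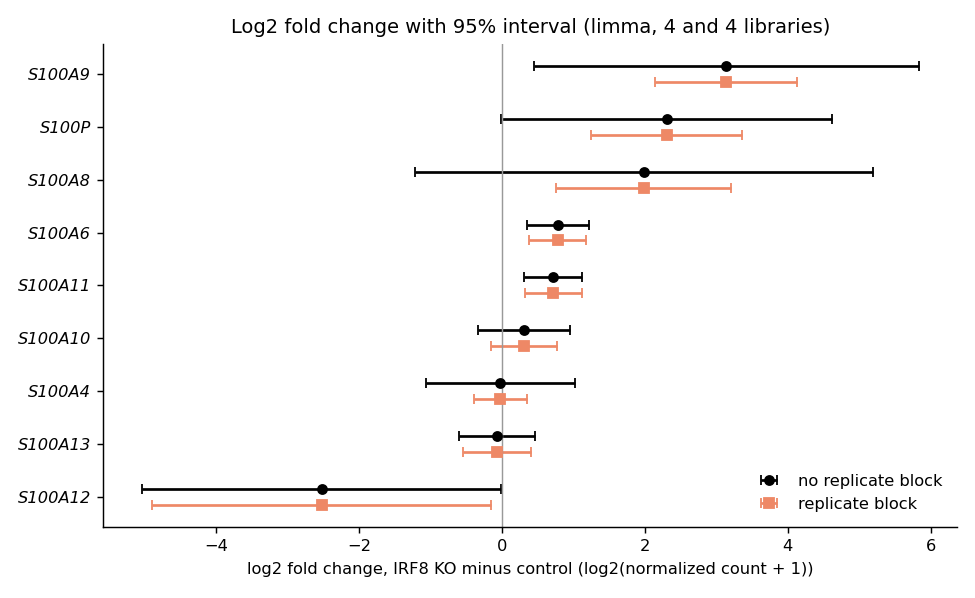
Log2 fold change of the 9 tested members (horizontal axis, IRF8 KO minus control) with 95% intervals from limma, without (black circles) and with (orange squares) the replicate number as a block. The block left the fold changes in place and shortened the interval of S100A9 from between 0.45 and 5.83 to between 2.15 and 4.14, while S100A6 and S100A11 changed little.

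S100A9, the larger chain of calprotectin, had the largest log2 fold change of the members. It was measured at 505, 21.6, 886 and 255 normalized counts in control replicates 1 to 4 and at 5839, 402, 2244 and 2984 in IRF8 KO replicates 1 to 4. IRF8 KO replicate 2 lay inside the control range, but each knockout library was above the control of the same number, by 3.53, 4.16, 1.34 and 3.54 on the log2 scale for replicates 1 to 4. The log2 fold change was 3.14 (SE 1.18, 95% interval 0.45 to 5.83), which did not pass the adjustment over all genes (limma adjusted p = 0.104, exact two-sided permutation p = 0.0857). With the replicate block the SE was 0.42 and limma gave an adjusted p of 0.00215. The difference was 2.43 within replicates 1 and 3 and 3.85 within replicates 2 and 4, and without control replicate 2 the log2 fold change was 2.04.

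S100A8, the other chain, showed 595, 9.49, 935 and 233 normalized counts in the controls and 1311, 127, 1154 and 1739 in IRF8 KO. The value of 9.49 in control replicate 2 rests on 11 reads and the ranges of the groups overlapped. The gene was higher in IRF8 KO at all 4 replicate numbers. Its log2 fold change was 1.99 (SE 1.41, 95% interval -1.21 to 5.19, limma adjusted p = 0.385), and limma with the replicate block gave an adjusted p of 0.0282 (SE 0.52). It was 0.72 within replicates 1 and 3 and 3.25 within replicates 2 and 4, and it shrank to 0.59 without control replicate 2 and to 1.30 with edgeR or DESeq2.

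S100A12, which lies between S100A8 and S100A9 on chromosome 1, was the member with the most negative log2 fold change. It had 40.2, 1.73, 81.6 and 19.8 normalized counts in the controls, from 50, 2, 76 and 21 reads, and 10.7, 2.87, 0 and 2.95 in IRF8 KO, from 10, 3, 0 and 3 reads. Apart from control replicate 2, every control library lay above every knockout library. The fitted log2 fold change was -2.52 (SE 1.10, 95% interval -5.03 to -0.01, limma adjusted p = 0.156, with the replicate block 0.104). It was -4.10 within replicates 1 and 3 and -0.94 within replicates 2 and 4. Leaving out 1 library moved it both ways, to -3.50 without control replicate 2 (limma adjusted p = 0.0294), -1.86 without control replicate 3 (0.313) and -1.90 without IRF8 KO replicate 3 (0.322), and with a pseudocount of 5 it was -1.76 (0.137). DESeq2 gave an adjusted p of 0.0303 on all libraries. Values of 3 reads or fewer are at the limit of what the depth can show.

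The 3 neighbouring genes were also set against each other within each library. The log2 ratio of S100A12 to S100A8 was -3.85, -1.94, -3.50 and -3.49 in control replicates 1 to 4 and -6.81, -5.05, -10.17 and -8.78 in IRF8 KO replicates 1 to 4. The groups did not overlap, and the mean ratio was lower by -4.51 on the log2 scale in IRF8 KO (-3.20 ± 0.85 in the control and -7.71 ± 2.24 in IRF8 KO, SD, n = 4 and 4, exact two-sided permutation p = 0.0286, the smallest p that 4 against 4 libraries allow, and 0.0571 after Benjamini-Hochberg adjustment over the 2 ratios). The size of this difference depended on the pseudocount, since S100A12 had 0 to 10 reads in IRF8 KO: it was -4.80 with a pseudocount of 0.5 and -3.64 with one of 5, and the ratio of -10.17 in IRF8 KO replicate 3, which had 0 reads of S100A12, is set by the pseudocount. An exact sign-flip test over the replicate numbers gave p = 0.125, the smallest it can give, with a lower ratio at 4 of 4 numbers. The log2 ratio of S100A8 to S100A9 was 0.24, -1.11, 0.08 and -0.13 in the controls and -2.15, -1.65, -0.96 and -0.78 in IRF8 KO. Control replicate 2 lay among the knockout values, and the difference of -1.16 did not pass the test (exact two-sided permutation p = 0.0857, also after adjustment). It was lower in IRF8 KO at 4 of 4 replicate numbers.

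**Figure D3:**
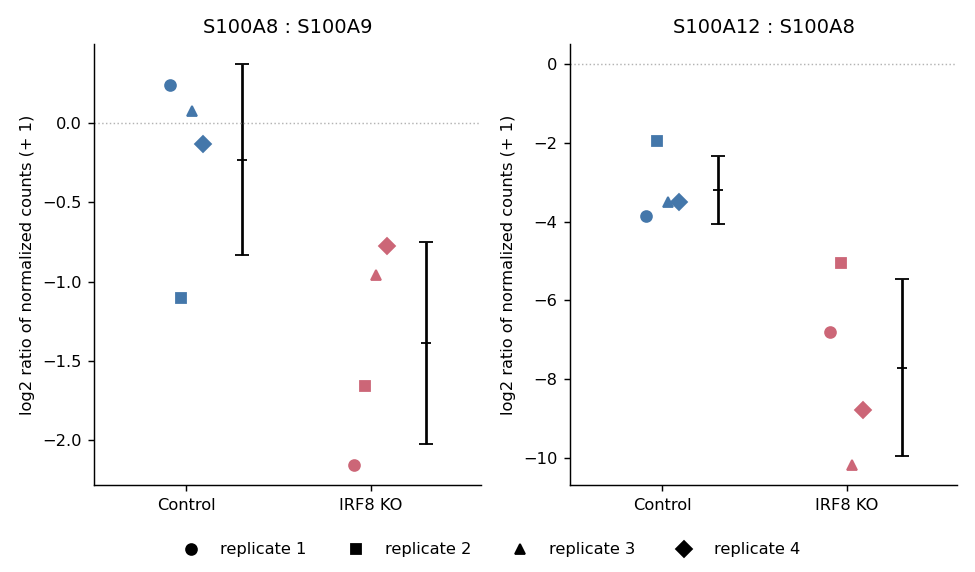
Log2 ratio of normalized counts (plus 1) of S100A8 to S100A9 (left) and of S100A12 to S100A8 (right) in each control (blue) and IRF8 KO (red) library, with the replicate number as the symbol and mean ± SD in black (n = 4 and 4). The ratio of S100A12 to S100A8 lay between -3.85 and -1.94 in the controls and between -10.17 and -5.05 in IRF8 KO, while the ratios of S100A8 to S100A9 overlapped.

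Among the S100 proteins that act inside the cell, S100A6 (calcyclin, a partner of annexins and of the ubiquitin ligase adaptor CACYBP) and S100A11 (calgizzarin, a partner of annexin A1) rose in IRF8 KO. S100A6 had 1665, 1600.0, 1579 and 1764 normalized counts in the controls and 3969.5, 2390.5, 3193 and 2146 in IRF8 KO. The controls lay close together and all knockout libraries above them, as held for 12.3% of all tested genes. Its log2 fold change was 0.78 (SE 0.19, limma adjusted p = 0.0227), which is 1.72-fold. S100A11 had 6401, 6904, 6627 and 8385 normalized counts in the controls and 15808, 9128, 11684 and 10715 in IRF8 KO, again without overlap. Its log2 fold change was 0.72 (SE 0.18, limma adjusted p = 0.0237), which is 1.65-fold. For each of these genes the exact two-sided permutation p was 0.0286. The differences were larger within replicates 1 and 3 (1.13 for S100A6 and 1.06 for S100A11) than within replicates 2 and 4 (0.43 and 0.38), and the difference between these sets was not tested. The limma adjusted p of S100A6 rose to 0.0541, 0.0580 and 0.0607 without control replicate 1, control replicate 3 or IRF8 KO replicate 3, and that of S100A11 to 0.0647, 0.0504, 0.0616 and 0.0553 without control replicate 1, 2 or 3 or IRF8 KO replicate 3. RefSeq lists 10 pseudogenes named after S100A11, which are not in the table, so that how reads were shared with them is unknown.

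S100A4 (metastasin, a partner of myosin IIA) was measured at 6712, 1933, 6534 and 2997 normalized counts in the controls and at 6855, 2677, 4734 and 2777 in IRF8 KO. Its values went with the library pairs, since replicates 1 and 3 were high and 2 and 4 low in both groups. For S100A4 the log2 fold change was -0.02 (SE 0.46, 95% interval -1.07 to 1.03, limma adjusted p = 0.983), and with the block the interval was -0.38 to 0.35. It was -0.22 within replicates 1 and 3 and 0.18 within replicates 2 and 4. S100A10 (p11, which pairs with annexin A2 at the plasma membrane) had 1152, 954, 1142 and 1007 normalized counts in the controls and 2288, 1018, 1500.4 and 864 in IRF8 KO. It ranged more widely in the knockout, with replicate 4 below all controls and replicates 1 and 3 above them, and the log2 fold change was 0.31 (SE 0.28, 95% interval -0.33 to 0.95, limma adjusted p = 0.504). It was 0.69 within replicates 1 and 3 and -0.06 within replicates 2 and 4, and 0.05 without IRF8 KO replicate 1 or 0.52 without IRF8 KO replicate 4. S100A13, known for its part in the release of FGF1 and interleukin-1α, had between 141 and 248 normalized counts in the controls and between 143 and 193 in IRF8 KO. Its log2 fold change was -0.07 (SE 0.24, 95% interval -0.60 to 0.47, limma adjusted p = 0.889), and its sign turned with quantile normalization (0.08). S100A13 spans S100A1 on the opposite strand in RefSeq. It also shares 296 bases with CHTOP on that strand, which had a mean of 5240.5 normalized counts over the 8 libraries. The sources used here do not give the strand setting of the read counting.

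S100P, a placental and epithelial S100 protein that also occurs in myeloid cells, also differed widely between the control pairs. It was measured at 150.4, 1979.6, 117 and 1752 normalized counts in control replicates 1 to 4 and at 2058, 3422, 941 and 5576 in IRF8 KO replicates 1 to 4. Control replicates 2 and 4 exceeded IRF8 KO replicate 3, so the groups overlapped, but every knockout library was above the control of its own number, by between 0.79 and 3.77 on the log2 scale. For S100P the log2 fold change was 2.31 (SE 1.02, 95% interval -0.01 to 4.62, limma adjusted p = 0.160, exact two-sided permutation p = 0.143), and limma with the replicate block gave an adjusted p of 0.00894 (SE 0.45). It was 3.38 within replicates 1 and 3 and 1.23 within replicates 2 and 4. It shrank to 1.61 without control replicate 3 (limma adjusted p = 0.313) and to 1.56 with edgeR (adjusted p = 0.303), and ran up to 2.97 without control replicate 2 (limma adjusted p = 0.0804). S100P was higher in replicates 2 and 4 than in 1 and 3, by 3.80 in the controls and 1.65 in IRF8 KO. S100A8 and S100A9 went the other way, at -3.92 and -3.14 in the controls and -1.38 and -1.72 in IRF8 KO.

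S100Z, described in spleen and leukocytes, was at 0 in the 4 controls and at 11.7, 9.56, 0 and 5.90 normalized counts in IRF8 KO, from 11, 10, 0 and 6 reads. It was left out of the test over all genes because its mean was 3.40. Against 3 reads per control library, the limit that a count of 0 allows, the measured knockout mean was 2.11-fold higher (exact two-sided permutation p = 0.143). This ratio takes the knockout mean without its error, and IRF8 KO replicate 3 was at 0 like the controls. Without the filter, limma gave S100Z a log2 fold change of 2.46 (adjusted p = 0.0513). The reads of all 10 members together made up 0.0285% to 0.0345% of the reads of a control library and 0.0375% to 0.0714% of those of an IRF8 KO library.

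Of 10 other S100 genes, S100A1 and S100B passed the filter and 0 were called. S100A1, known from heart and skeletal muscle, had 46.7, 112, 62.3 and 93.2 normalized counts in the controls and 57.5, 237, 268 and 326 in IRF8 KO, so that only IRF8 KO replicate 1 lay within the control range. Its log2 fold change was 1.31 (SE 0.55, limma adjusted p = 0.138). With the replicate block limma gave an adjusted p of 0.0225, and without IRF8 KO replicate 1 it gave 0.00995 with a log2 fold change of 1.87. S100B, the astrocyte S100 protein, had a log2 fold change of 0.57 (limma adjusted p = 0.443).

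Of the 18 tested receptors and adaptors that sense extracellular S100 proteins, 6 were called higher and 1 lower (median log2 fold change 0.19), and 7 higher and 4 lower with the replicate block. Over all tested genes the shares were 8.65% higher and 9.56% lower, and 14.2% and 14.6% with the block. These shares also stand beside the lists below, and no list was tested as a set. TLR4, the receptor for calprotectin, rose from 486 ± 118 to 1359 ± 381 normalized counts (SD, n = 4 and 4; log2 fold change 1.47, limma adjusted p = 0.00524). Its adaptor TIRAP rose by 1.62 (limma adjusted p = 0.00140), and its partner LY96 by 1.23 (limma adjusted p = 0.0245). BSG (log2 fold change 0.95, limma adjusted p = 0.00420) and ALCAM (2.08, limma adjusted p = 0.00830), surface proteins described as S100A9 and S100B receptors, were higher as well. CD36, a scavenger receptor that takes up complexes of S100A8 and S100A9 with fatty acids, fell from 94.6 ± 91.3 to 1.55 ± 1.95 normalized counts (SD, n = 4 and 4; log2 fold change -4.55, limma adjusted p = 0.0255). AGER, which encodes RAGE, had a log2 fold change of -0.43 (limma adjusted p = 0.101) and was called with the replicate block (limma adjusted p = 0.0445). The calls of LY96 and CD36 were lost when some libraries were left out: LY96 without control replicate 1 or 3 or IRF8 KO replicate 1, 3 or 4 (limma adjusted p between 0.0524 and 0.0651) and CD36 without control replicate 1 or 3 or IRF8 KO replicate 2 or 4 (between 0.0565 and 0.0715).

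Of the genes for intracellular binding partners, 4 of 15 tested were called higher and 0 lower (median log2 fold change 0.34). ANXA1, the annexin bound by S100A11, rose from 195, 61.2, 160.0 and 160.1 normalized counts in the controls to 7197, 2222, 6025 and 5119 in IRF8 KO. Every knockout value lay above every control value, and the log2 fold change was 5.14 (SE 0.45, limma adjusted p = 0.000201). ANXA11, a partner of S100A6, rose by 1.00 (limma adjusted p = 0.000726), whereas ANXA2, the partner of S100A10, had a log2 fold change of -0.03 (limma adjusted p = 0.974). CYBB, the membrane chain of the phagocyte oxidase to which calprotectin carries arachidonic acid, rose from 2091 ± 796 to 16275 ± 2888 normalized counts (SD, n = 4 and 4; log2 fold change 3.03, limma adjusted p = 0.000253).

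Of 13 transcription factors of myeloid cells, 3 were called higher and 1 lower (median log2 fold change 0.23). CEBPE, a factor of late granulocyte maturation, had 53.1, 35.4, 54.8 and 33.0 normalized counts in the controls and 3524, 1056, 4479.6 and 1118 in IRF8 KO, with a log2 fold change of 5.56 (SE 0.49, limma adjusted p = 0.000222). CEBPD, another C/EBP factor, rose by 2.30 (limma adjusted p = 0.00172). GFI1, a transcriptional repressor needed in granulocyte development, rose by 0.55 (limma adjusted p = 0.0323), and IRF4, the closest relative of IRF8, fell by 1.67 on the log2 scale (limma adjusted p = 0.0446). The calls of GFI1 (without control replicate 1, 3 or 4 or IRF8 KO replicate 1 or 4) and of IRF4 (without any control replicate or IRF8 KO replicate 3 or 4) were lost, with limma adjusted p between 0.0580 and 0.0967. CEBPA, CEBPB and SPI1, which encodes PU.1, were not called (limma adjusted p = 0.636, 0.415 and 0.402). Their log2 fold changes were 0.19, -0.72 and 0.29. CEBPB had 2422 ± 1710 normalized counts in the control and 1223 ± 431 in IRF8 KO (SD, n = 4 and 4).

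Markers of neutrophil and monocyte cells moved beside the S100 genes, and in bulk RNA a shift in the number of cells of a type and a shift in RNA per cell cannot be told apart. Of 16 neutrophil markers, 10 were tested, 5 were called higher and 1 lower. The 5 were primary granule genes of promyelocytes: MPO rose by 4.08 on the log2 scale, ELANE by 3.64, CTSG by 3.30, PRTN3 by 2.88 and AZU1 by 1.54. BPI of the same list was not called (log2 fold change 1.00, limma adjusted p = 0.435). It had 218 normalized counts in IRF8 KO replicate 1, 20.3 to 22.9 in IRF8 KO replicates 2 to 4, and 10.5 to 35.8 in the controls. MMP9, a gelatinase of later granules on chromosome 20, fell by 2.12, and its call was lost without any 1 control replicate or IRF8 KO replicate 3 or 4 (limma adjusted p between 0.0598 and 0.107). On chromosome 20, 214 of 351 tested genes were called lower and 5 higher. The summed level of the neutrophil list was 34358 to 37240 normalized counts in the controls and 139485 to 327974 in IRF8 KO. Other genes of the list that mark later granulocytes ranged widely. LCN2, FCGR3B, MMP8, CEACAM8 and OLFM4 had group means of 1.98 normalized counts or fewer, with OLFM4 at 0 in every library, whereas CSF3R had means of 1426 and 2134 and CXCR2 means of 794 and 741 in control and IRF8 KO. Of the granule genes LTF and CAMP, the means were 21.5 and 13.7 in the control and 4.89 and 4.23 in IRF8 KO. LTF was not called in the main test (log2 fold change -2.05, limma adjusted p = 0.254). With the replicate block it was called lower (limma adjusted p = 0.0328).

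Of 15 monocyte markers, 13 were tested, 4 were called higher and 3 lower. ITGAM rose by 3.03, CD68 by 1.83 and SERPINA1 by 1.34 on the log2 scale, while VCAN fell by 3.27 and CCR2 fell by 2.64. MS4A6A fell from 5126, 581, 5475 and 1584 normalized counts in the controls to 3.20, 1.91, 1.35 and 2.95 in IRF8 KO (log2 fold change -9.43). LYZ, the lysozyme of monocytes and granulocytes, had 12725, 1734, 14757 and 2629.7 normalized counts in the controls and 248604, 13767, 39385 and 32984 in IRF8 KO (log2 fold change 3.09, limma adjusted p = 0.0600, with the replicate block 0.00213). CD14, the defining surface marker, was low in both groups, at 8.03 ± 4.78 and 19.3 ± 5.32 normalized counts (SD, n = 4 and 4; limma adjusted p = 0.114, with the replicate block 0.0479). The call of CCR2 was lost without control replicate 1 or 3 or IRF8 KO replicate 3 or 4 (limma adjusted p between 0.0610 and 0.0696) and that of SERPINA1 without IRF8 KO replicate 4 (limma adjusted p = 0.0513). The summed monocyte list ran from 18981 to 35407 normalized counts in the controls and from 37331 to 268905 in IRF8 KO. Without LYZ, a sum taken after seeing the data, the 14 other markers overlapped between the groups, at 17247 to 22312 in the controls and 18954 to 23565 in IRF8 KO. What part these shifts had in the S100 values was not tested.

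The markers of the labelled leukemia line were present, with FLT3 at 55440 ± 12686 and 47310 ± 5974 and HOXA9 at 2665 ± 817 and 2013 ± 259 normalized counts in control and IRF8 KO (SD, n = 4 and 4). Of the 5 leukemia markers, MEIS1 fell by 0.56 and PTPRC rose by 1.34 on the log2 scale (limma adjusted p = 0.0287 and 0.0246), and the calls of both were lost without control replicate 1 or 3 or IRF8 KO replicate 1, 3 or 4, and that of MEIS1 also without control replicate 2 or 4 (limma adjusted p between 0.0515 and 0.0793). T cell markers summed to at most 25.7 and erythroid markers to at most 6.77 normalized counts in any library. B cell markers summed to between 193 and 512 normalized counts in the controls and between 167 and 923 in IRF8 KO, with MS4A1 at 0 in every library. ITGA2B among the megakaryocyte markers was not called in the main test (log2 fold change -1.09, limma adjusted p = 0.186) but was called lower with the replicate block (0.00439), with the covariate for replicates 1 and 3 against 2 and 4 (0.00723) and without IRF8 KO replicate 2 (0.0454), and PF4 and PPBP were at 0 in every library. Of the fibroblast markers, COL1A1 and PDGFRB were tested and not called (limma adjusted p = 0.526 and 0.305).

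Of the 63 other genes counted between and beside the S100A genes on chromosome 1, 29 were at 0 in every library and 12 were tested. This stretch, the epidermal differentiation complex, also holds the LCE and SPRR genes of the skin. Of these 12, NPR1 was called higher (log2 fold change 2.45, limma adjusted p = 0.0407) and TDRKH lower (-1.05, limma adjusted p = 0.00170), with a median of -0.02. NPR1 lost its call without any 1 control replicate or IRF8 KO replicate 1 (limma adjusted p between 0.0516 and 0.0927). Next to S100A10, THEM4 had a log2 fold change of -0.10, and CHTOP beyond S100A1 one of -0.03. Over chromosome 1 the median was -0.01 with 109 genes called higher and 118 lower of 1336 tested, over chromosome 4, which holds S100P, 0.04, and over chromosome 5, which holds S100Z, 0.22.

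**Figure D4:**
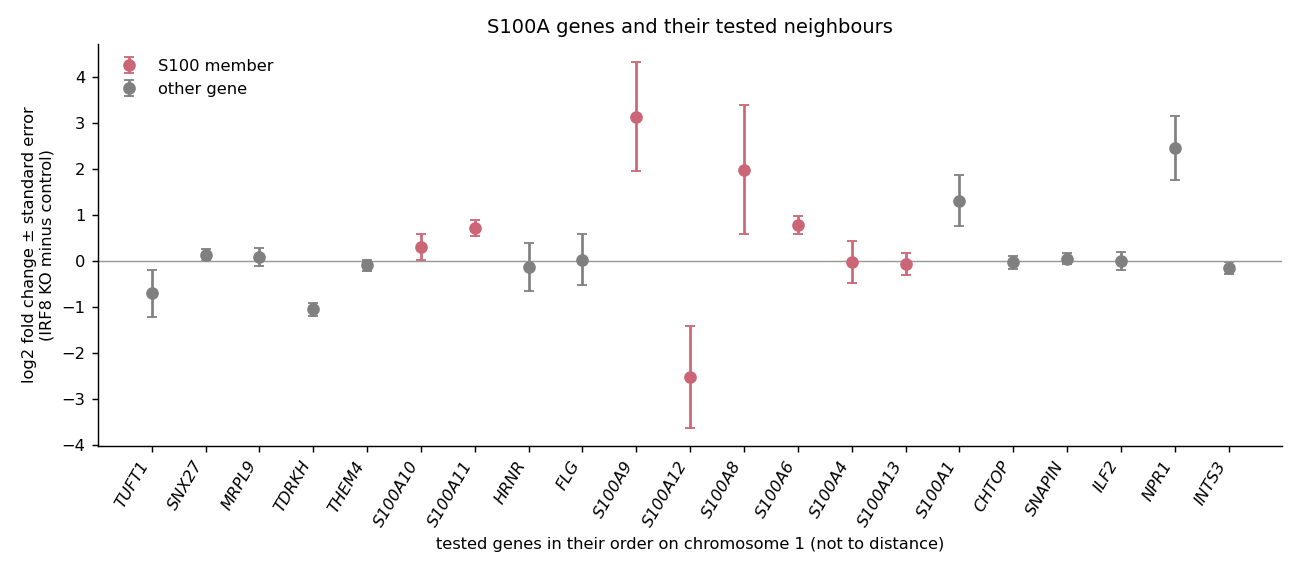
Log2 fold change ± standard error (limma, IRF8 KO minus control, 4 and 4 libraries) of the tested genes in their order along chromosome 1, S100 members in red and other genes in grey. S100A9 (3.14) and S100A8 (1.99) stand on either side of S100A12 (-2.52), and the other tested genes lie between -1.05 and 2.45.

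The genes whose log2 values followed the mean of S100A8 and S100A9 most closely over the 8 libraries, among 10984 genes with a mean of at least 100, were MRVI1 (Pearson r = 0.981), DHFR2 (0.978), NEIL3 (0.964), PHTF2 (0.963) and BAG4 (0.959). They were picked for this likeness, the 8 libraries share the grouping into replicates and conditions, and 0 of the 5 were called between the groups (limma adjusted p between 0.181 and 0.311). With the replicate block limma called NEIL3 (adjusted p = 0.0338).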

How the data were processed

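RNA-Seq libraries of MV4-11 cells, 4 of the CRISPR Control and 4 of IRF8 KO, were analysed; the IRF8 ChIP-Seq samples were not analysed here. Per the methods of the study, stranded mRNA libraries were aligned to GENCODE v32 by RNA-Star 2.7.2b, featureCounts 2.0.1 gave the reads per gene, and DESeq2 normalized them. Not given in the sources used here are its genome build and strand setting. The signal per gene deposited by the authors is the read count divided by 1 size factor per library. Dividing by the value of 1 read gave whole reads for 100% of values within 0.01 reads. The deposited table of the authors' own comparison (log2 fold changes, standard errors, p-values) was not used. Control columns are headed WT, a name the study also uses for cells without the vector, and were assigned by the labels to the control replicate with that number; 0 columns were left unassigned.

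Values were tested with limma 3.58.1 (R 4.3.3) on log2(normalized count + 1), for 13110 genes averaging at least 10 normalized counts. The prior variance was robust and followed the mean. P-values were adjusted over all these genes after Benjamini-Hochberg, and genes were called at an adjusted p below 0.05. Of the 19590 genes, 2197 were 0 in every library. The script was tested on simulated data. Exact two-sided permutation tests were run on single genes and 2 ratios. The replicate numbers were checked for pairing: deviations from the group means of same-numbered control and IRF8 KO libraries correlated at 0.37, 0.48, 0.45 and 0.50 over genes. The sources do not say what a number marks. IRF8 KO replicate 1 correlated more with control replicate 3 (0.41) than with control replicate 1 (0.37). IRF8 KO replicate 3 correlated more with control replicate 1 (0.47) than with control replicate 3 (0.45). Control replicate 4 with IRF8 KO replicate 2 (0.41) and control replicate 2 with IRF8 KO replicate 4 (0.40) correlated as well. The block by number is therefore an assumption. Alternatives were pseudocounts of 0.5 and 5, no filter and a mean of at least 100, upper quartile, quantile and TMM scaling, a constant prior variance, the recovered reads in edgeR 4.0.16 and in DESeq2 1.42.0, the replicate block, leaving out each library, and, chosen after seeing the data, replicates 1 and 3 against 2 and 4 as a covariate. The members and gene lists were chosen with earlier results of these data known. Named were IRF8, the members, the called genes of each list (the 6 with the largest fold change where more were called), the genes most like S100A8 and S100A9, and neighbours of members; other genes were named after their values were seen. Some genes of the lists are not reported here. Gene positions and promoters are from RefSeq (GRCh38.p14), which held all 10 members. Gene lengths were not used, so levels are not compared between genes. Intervals and floors for counts cover counting error only.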

Additional observations from a re-analysis of the deposited data

How the results depend on the processing

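The number of members called was 2 in 9 settings that changed the pseudocount, the filter, the scaling, the variance trend or the tool to edgeR. It was 4 with DESeq2, 5 with the replicate block, 4 with the covariate for replicates 1 and 3 against 2 and 4, and 0 to 2 with 1 library left out, being 0 without control replicate 1, control replicate 3 or IRF8 KO replicate 3 (limma adjusted p over 0.05 for each member; S100A12 took the place of S100A11 without control replicate 2). The number of genes called was 2387, and 3769 with the block or 4333 with the covariate. The block added the calls of S100A8, S100A9, S100P, S100A1, AGER, CD14, LYZ, LTF, ITGA2B and NEIL3 and changed no other call of a named gene. S100A13 turned to 0.084 with quantile normalization and 0.088 without control replicate 2, running from -0.18 to 0.088 with 1 library left out, and S100A4 from -0.37 to 0.23. The ratio of S100A12 to S100A8 was -4.51 under the paired sign-flip test, which cannot reach 0.05 (p = 0.125), and -5.39 to -3.68 with 1 library left out, where p = 0.0571 is the smallest an exact test allows. GFI1 lost its call with quantile normalization (adjusted p = 0.0618) and IRF4 and MMP9 lost theirs with edgeR (0.0618 and 0.0574) and with limma without the trend (0.0546 and 0.0562). S100A12 had no value with a mean of at least 100 required, and S100Z had one only without a filter. The cause of these changes was not tested. Depth limits S100A12 and S100Z, which rest on 0 to 76 reads.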
